A study of Bos grunniens with 3 samples.

Results

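Collagen, laminin, nidogen and integrin genes were examined in 3 single-cell RNA sequencing libraries of white yak hair follicle. Members were chosen by symbol alone. They were the genes named as a collagen chain (COL, a number, A and a number), as a laminin chain (LAMA, LAMB or LAMC and a number), as an integrin chain (ITGA or ITGB followed by a number or by L, M, V, X, E or D), or *NID1* or *NID2*. Of the 26924 genes in the files, 15765 carry a symbol and 75 were members. Among the 75 members, 72 are chains of these families, and *ITGB1BP1*, *ITGB1BP2* and *ITGBL1* share only the first letters of the name.

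The libraries were made from skin of the scapula of healthy Tianzhu white yaks (Bos grunniens) about 2 years old, 1 each in anagen (hair growth), catagen (regression) and telogen (rest), with no treatment in any of them. In all 3 libraries the skin was digested with dispase, the follicle was pulled out and its cells were freed with trypsin, so that cells loosened from the hair shaft were sequenced rather than whole skin. The labels give the cell type as hair follicle and do not say which animal, or how many, each library came from. The stage of the catagen library was taken from its title, stage label and description, since its collection protocol repeats the word anagen.

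The basement membrane is a thin sheet on which the basal cells of the epidermis and the outer root sheath sit. Its laminin and type IV collagen networks are joined by nidogen, and hemidesmosomes, built on type XVII collagen and the *ITGA6* and *ITGB4* integrin chains, rivet keratinocytes to an anchoring laminin that holds the *LAMA3* and *LAMB3* chains. Fibrillar collagens form the dermis below, fibril-associated collagens coat those fibrils, and the other integrins let cells hold and sense laminin, collagen and fibronectin.

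Cell Ranger had counted unique molecular identifiers (UMIs, 1 per captured RNA molecule), and levels are given as CPM, the UMIs of a gene per 1000000 UMIs of the cells summed. The anagen, catagen and telogen libraries kept 11987, 12062 and 14502 cells with at least 200 genes and 82816430, 51537357 and 103430933 UMIs. Before that filter they held 12000, 12124 and 14573 cells, with medians of 5251.5, 3339.5 and 5561 UMIs per cell. Among these, the smallest cell had 2404 UMIs in anagen and 500 in the other libraries, and 40 to 49 cell barcodes were shared by each pair of libraries. With 1 library per stage there was no replicate and no test. Each library was also counted with its own Cell Ranger version by the file headers, so stage and processing cannot be told apart in any stage ratio. Every interval is an exact 95% interval that covers counting error only, and a gene was counted as higher or lower when it passed 2-fold with at least 10 CPM on its higher side and 10 UMIs in all.

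Cells were clustered without the members, and classes were named from other genes, of which 4 are described here. Basal keratinocyte-like cells (676, 870 and 710 cells in anagen, catagen and telogen) held *KRT14*, the basal keratin, at 27217, 26344 and 39048 CPM, and *PECAM1* and *LUM* with 1 UMI each over the 3 libraries. Of the 6 basal markers, *KRT5*, *KRT14* and *KRT15* were raised in them. The others were not, among them *TP63*, at 27.0, 69.6 and 47.7 CPM against 48.7, 71.2 and 48.1 CPM in bulge stem-like cells. Bulge stem-like cells (1030, 2533 and 1272 cells, 8.59%, 21.0% and 8.77% of each library) held *LHX2* at 348, 301 and 192 CPM, with *LUM* and *CDH5* at 0 and *PECAM1* at 2, 0 and 1 UMIs. The class joined cluster 4 (2851 cells), where *NFATC1* of the bulge stem markers was not raised, and cluster 7 (1984 cells), where *SOX9* and *LGR5* were not. Markers of other lists were present, with *TAGLN*, a pericyte marker, at 365, 508 and 361 CPM. The mesenchymal markers *MMP2* and *THY1* had 67, 66 and 18 UMIs and 34, 30 and 67 UMIs. Endothelial-like cells (48, 27 and 33 cells) held *PECAM1*, an endothelial junction protein, at 2556, 2222 and 2615 CPM, and *LUM*, *PDGFRA* and *PDGFRB* at 0. Mesenchymal-like cells numbered 21, 4 and 6, held *FBLN1* at 751, 925 and 397 CPM and had *PECAM1*, *CDH5* and *VWF* at 0. Of their other markers, *LUM* had 62, 0 and 5 UMIs and *MMP2* 17, 0 and 0, while *PDGFRB* had 11, 4 and 2. The name thus rests mostly on the anagen cells. Suprabasal-like, inner root sheath-like, hair cortex-like, pericyte-like and 2 kinds of dividing cells were also named, and 6002, 6346 and 10591 cells stayed unnamed. *KRT14* stood at 2248, 622 and 2665 CPM in endothelial-like and 3018, 213 and 13676 CPM in mesenchymal-like cells, which should both lack it. Whether free RNA or doublets, which were left in, brought it there was not tested.

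Of the 75 members, 17 reached 20 CPM in at least 1 library, 4 peaked between 10 and 20 CPM and 21 between 1 and 10 CPM. The other 33 stayed under 1 CPM in every whole library, among them *COL9A3* with 0 UMIs in all 3 libraries. Members together made up 910.5, 1200.0 and 917 CPM. The 3 hemidesmosome genes *COL17A1*, *ITGA6* and *ITGB4* alone gave 352, 529 and 404 CPM, or 38.7, 44.1 and 44.0% of all member UMIs. The 6 type IV collagen chains 71.9, 81.5 and 54.0 CPM and the 9 fibrillar collagen chains 73.6, 53.1 and 27.6 CPM. Capture differs between genes, so the order of levels is a description of UMIs and not of transcript numbers. *ITGB1*, *ITGB3*, *ITGA8*, *ITGAX*, *COL1A1*, *COL6A3*, *COL7A1*, *COL18A1*, *COL27A1* and *NID2* were not analysed here, since no row was matched by these symbols.

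*COL17A1*, the transmembrane collagen of the hemidesmosome, was the member with the highest level in every library, at 214 CPM in anagen (interval 211 to 217), 308 in catagen (303 to 313) and 193 in telogen (189.9 to 195). *ITGA6*, the alpha chain of the hemidesmosome integrin, followed at 124, 184 and 189 CPM and its interval overlapped that of *COL17A1* in telogen alone (186 to 192). *LAMA3*, the alpha chain of the anchoring laminin, was at 48.4, 97.5 and 89.5 CPM, so anagen was the lowest library. *ITGB5*, a vitronectin receptor chain, was at 66.5, 71.8 and 54.8 CPM, and its partner *ITGAV* at 24.9, 30.6 and 25.9 CPM, both with catagen highest. *ITGB4*, which pairs with *ITGA6*, was at 14.2, 36.6 and 22.1 CPM and was again lowest in anagen. *LAMB3*, the beta chain of the anchoring laminin, had the same order of libraries at 18.5, 32.5 and 27.0 CPM. The plot of member levels by library shows *COL17A1*, *ITGA6* and *LAMA3* to the right of the other collagens and *ITGB4* and *LAMB3* among them, and that *COL1A2* alone has its libraries spread over more than an axis decade.

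**Figure D1:**
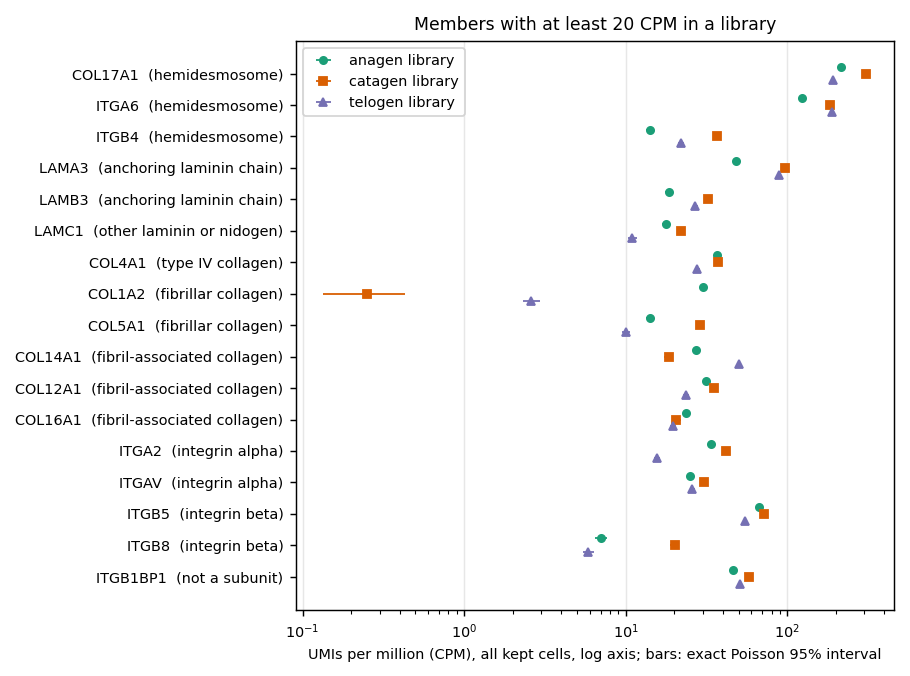
Level of the 17 members with at least 20 CPM in a library, on a log axis of CPM over all kept cells. Circles, squares and triangles are the anagen, catagen and telogen libraries, bars are exact Poisson 95% intervals, and the role of each gene stands in brackets. *COL17A1* lies furthest right in every library and *COL1A2* falls from 30.3 CPM in anagen to 0.252 in catagen.

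In whole libraries, 17 of the 21 members counted had a higher CPM in catagen than in anagen before rescaling, and the ratio of 16 lay above the median of all genes. *ITGB8*, an integrin chain that pairs with *ITGAV*, was at 7.04, 20.1 and 5.87 CPM in anagen, catagen and telogen, and its catagen over anagen log2 ratio was 1.51 (1.36 to 1.66). *ITGB4* had a log2 ratio of 1.37 (1.27 to 1.48), *LAMA3* of 1.01 (0.95 to 1.07) and *COL5A1*, a fibrillar chain that sets fibril width, of 1.02 (0.91 to 1.14) from levels of 14.1, 28.7 and 10.1 CPM. These were the 4 members past 2-fold upward of the 21, while 4.41% of all genes counted were. *COL1A2* was the 1 member past 2-fold downward, against 3.47% of all genes counted. The median log2 ratio was 0.32 over the 21 members and 0.05 over 6052 genes. In sums over a whole library, fewer cells of a type and less RNA per cell cannot be told apart, and the share of bulge stem-like cells was higher in catagen by the values above.

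Telogen against anagen gave fewer members past 2-fold. *ITGA2*, the collagen-binding alpha chain, was at 33.6, 42.0 and 15.6 CPM and its telogen over anagen log2 ratio was -1.10 (-1.19 to -1.01). It and *COL1A2* were the 2 of 20 members lower by 2-fold, against 7.83% of all genes, and 0 of 20 were higher, against 3%. *LAMA3* came close at 0.89 (0.83 to 0.94) and *COL14A1*, a fibril-associated collagen, at 0.88 (0.81 to 0.95) from 27.2, 18.5 and 50.1 CPM. *ITGA6* was also higher in telogen, at 0.61, whereas *COL17A1* was at -0.15 by CPM and 0.11 under median-of-ratios scaling. The median log2 ratio was -0.34 over the 20 members and -0.18 over 5733 genes.

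Telogen against catagen, which shares its libraries with the comparisons above, had 6 members past 2-fold. *COL14A1* was the 1 of 19 members higher in telogen, with a log2 ratio of 1.44 (1.34 to 1.54), against 4.1% of all genes. The 5 lower members were *ITGB8* at -1.77, *COL5A1* at -1.51, *ITGA2* at -1.43, *COL4A2* at -1.29 and *LAMC1* at -1.01, against 12% of all genes. *COL4A2* is a chain of the common type IV network, at 12.6, 19.6 and 7.99 CPM, and *LAMC1* is the gamma chain shared by most laminins, at 17.7, 22.1 and 11.0 CPM. By CPM *ITGA6* hardly differed between these libraries, with a log2 ratio of 0.03 (0.00 to 0.07). The median over all detected genes was -0.51, so under median-of-ratios scaling *ITGA6* lies higher in telogen than catagen. The median log2 ratio was -0.57 over the 19 members and -0.25 over 5970 genes.

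Median-of-ratios scaling sets the median log2 ratio of all detected genes to 0, and on CPM these medians were 0.28 for catagen over anagen, -0.26 for telogen over anagen and -0.51 for telogen over catagen, over 17021, 16961 and 16862 genes. On that scale 2 members were higher and 1 lower in catagen than anagen, 2 higher and 1 lower in telogen than anagen, and 1 higher and 1 lower in telogen than catagen. The share of all genes past 2-fold on that scale is not given, so these counts are not set against it. *ITGB8* and *ITGB4* stayed past 2-fold in catagen over anagen at 1.24 and 1.09, *COL5A1* and *LAMA3* did not at 0.75 and 0.73, and in telogen over anagen *ITGA2* came to -0.84 while *LAMA3* and *COL14A1* reached 1.15 and 1.14. The direction of 53 of 66 ratios of named members was the same on both scales. Among those that turned were *COL12A1* in catagen over anagen (0.16 and -0.11) and *LAMA3* in telogen over catagen (-0.12 and 0.39).

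*COL1A2*, a chain of type I collagen of the dermis, stood apart from the other members above 20 CPM. It had 2511 UMIs in anagen, 13 in catagen and 270 in telogen, or 30.3, 0.252 and 2.61 CPM, and a catagen over anagen log2 ratio of -6.91 (-7.82 to -6.13). The 21 mesenchymal-like cells of anagen held 91.4% of that library's *COL1A2* UMIs, the 4 of catagen 84.6% and the 6 of telogen 85.6%. A further 4.94% in anagen lay in a small group with both endothelial and mesenchymal markers. Without the endothelial-like, mesenchymal-like, pericyte-like and mixed cells, *COL1A2* stood at 1.09, 0.0389 and 0.378 CPM and its log2 ratio was -4.81 for catagen over anagen (-7.88 to -2.92) and -1.53 for telogen over anagen. Within the mesenchymal-like cells *COL1A2* was at 18141, 783 and 10191 CPM, so both the number of these cells and the level in them were lower in catagen and telogen than in anagen, and their parts in the whole-library ratio were not tested. The catagen and telogen values rest on 4 and 6 cells, in which *LUM* had 0 and 5 UMIs.

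*COL3A1*, the partner of type I collagen in young dermis, had 525, 5 and 55 UMIs in the whole libraries, the same order of libraries. *COL5A1* lost 15.1% of its anagen UMIs without those cells and 0.541% of its catagen UMIs, and its catagen over anagen log2 ratio then was 1.25 in place of 1.02. For the other 15 members with 20 CPM, at most 3.60% of the UMIs of a library were in those cells, the value of *COL4A1* in anagen.

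Of the 4 classes, basal keratinocyte-like cells had the highest *COL17A1* and *ITGA6* levels in every library. *COL17A1* was at 910.0 CPM in anagen (881 to 939), 778 in catagen (749 to 808) and 727 in telogen (702 to 752), which was 5.15, 2.83 and 4.30-fold the level in all other cells of the same library. *ITGA6* reached 342, 392 and 386 CPM and *LAMA3* 150.4, 223 and 239 CPM, each more than 2-fold above the other cells in all 3 libraries. The other cells include an unnamed cluster of 5605 cells with *KRT15* raised. In it *ITGA6* was at 287, 385 and 417 CPM, above the basal class in telogen, and *COL17A1* at 493, 615 and 399 CPM, below it throughout. *ITGB4*, at 32.2, 65.8 and 40.9 CPM against 40.0, 71.7 and 42.6 CPM in bulge stem-like cells, passed 2-fold in anagen alone (2.44, 1.91 and 1.92-fold), and so did *ITGA2*, at 84.7, 63.5 and 28.8 CPM (2.75, 1.57 and 1.91-fold).

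In all, 7 of 20 members were higher by 2-fold in basal keratinocyte-like cells in every library, where 2.16% of all genes counted were. Besides *COL17A1*, *ITGA6* and *LAMA3* they were *COL4A5* and *COL4A6*, the type IV chains of epithelial basement membranes, *ITGA3*, the laminin receptor chain outside hemidesmosomes, and *ITGB6*, an epithelial partner of *ITGAV*. *COL4A6* was at 34.8, 28.7 and 42.9 CPM, 4.62, 3.74 and 6.08-fold the other cells, and *COL4A5* at 53.5, 29.0 and 41.8 CPM, 4.74, 2.01 and 5.10-fold. *ITGA3* (14.0, 14.8 and 11.0 CPM) and *ITGB6* (11.6, 12.5 and 13.9 CPM), like *COL4A6*, passed the level filter only through this class, so their count by itself says little. *COL4A1* was the 1 member lower, at 7.10, 4.06 and 6.62 CPM against 38.5, 39.7 and 28.7 CPM in other cells, where 6.15% of all genes were lower. With 15 principal components, which put 5824 cells in the class, 2 members were counted as higher. No share of all genes is given for that setting.

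Bulge stem-like cells carried *COL17A1* and *ITGA6* at lower levels than basal keratinocyte-like cells, and a different set of matrix chains. *COL17A1* was at 466, 635 and 389 CPM (2.34, 2.48 and 2.18-fold the other cells), *ITGA6* at 204, 284 and 289 CPM and *LAMA3* at 176, 271 and 189 CPM. *LAMB3* was at 76.6, 98.5 and 75.8 CPM, 5.09, 4.47 and 3.24-fold the other cells. *LAMA3* and *LAMB3* were thus both above 2-fold in these cells in every library. *COL5A1* stood at 64.3, 88.4 and 35.2 CPM, 5.79, 4.59 and 4.28-fold the other cells, with telogen lowest.

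The whole count was 11 of 19 members higher by 2-fold in bulge stem-like cells in every library, against 3.41% of all genes, and 0 lower, against 4.35%. Of the 11, 1 passed the level filter only through these cells. Also among the 11 were *COL4A1*, *COL4A2*, *COL14A1*, *COL5A2*, *ITGB4* and *ITGB8*. *COL14A1* was at 65.5, 36.9 and 122 CPM and *COL4A1* at 83.6, 89.8 and 63.6 CPM. *COL8A1*, a short-chain collagen of basement membranes near vessels, was also above 2-fold in each library (20.9, 10.8 and 9.39 CPM) but under 10 CPM in telogen. *ITGB5* ran the other way, at 63.8, 48.3 and 36.0 CPM and 0.958, 0.639 and 0.641-fold the other cells.

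Type IV collagen chains parted between the classes. *COL4A1* was at 7.10, 4.06 and 6.62 CPM in basal keratinocyte-like and 83.6, 89.8 and 63.6 CPM in bulge stem-like cells, a basal over stem log2 ratio of -3.56, -4.47 and -3.26. *COL4A2*, which is made with *COL4A1* from a shared promoter region and joins it in 1 trimer, had basal over stem log2 ratios of -3.39, -4.48 and -4.09. *COL4A5* and *COL4A6*, the partners of another trimer, ran the opposite way with log2 ratios of 2.07, 1.33 and 2.86 and of 1.96, 2.07 and 3.35. No interval of these ratios reached 0 in any library. The remaining chains *COL4A3* and *COL4A4* had 1 to 6 UMIs per library and could not be compared. *LAMB1*, a beta chain of general basement membranes, was also higher in the basal class, with log2 ratios of 3.53, 3.56 and 2.77 from 36.9, 21.7 and 32.4 CPM, and *COL5A1* was lower there, at -2.09, -1.34 and -1.31.

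*COL17A1* was higher in basal keratinocyte-like than in bulge stem-like cells by a log2 ratio of 0.97, 0.29 and 0.90, and *ITGA6* by 0.75, 0.47 and 0.42, so catagen had the smallest gap for the first. *LAMB3* was lower there, at -0.86, -0.95 and -0.51. *LAMA3* changed sign between libraries, with log2 ratios of -0.22, -0.28 and 0.34, and *ITGB4* lay near 0 at -0.31, -0.12 and -0.06. In suprabasal-like cells, which have left the basement membrane, *COL17A1* was at 49.5, 59.6 and 31.5 CPM, *ITGA6* at 31.7, 46.3 and 34.4 and *ITGB4* at 2.84, 6.29 and 4.32. *ITGB5* stayed nearer its basal level, at 63.7, 94.2 and 60.2 CPM in suprabasal-like cells.

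Levels in endothelial-like cells were read from few cells and set against all other cells. *COL4A1*, part of the vessel wall membrane, was at 345, 249 and 309 CPM (75, 14 and 50 UMIs) and 9.55, 6.71 and 11.3-fold the other cells. *ITGA5*, the fibronectin receptor chain, was at 363, 160.0 and 346 CPM (79, 9 and 56 UMIs), against 3.32, 1.86 and 2.52 CPM in other cells. *LAMA4*, the laminin chain of vessels, was at 119.5, 124 and 117 CPM (26, 7 and 19 UMIs), against 0.908, 0.952 and 0.174 CPM. *ITGA9* stood at 82.7, 142 and 43.3 CPM (18, 8 and 7 UMIs) and *ITGA1*, a collagen and laminin receptor chain, at 69.0, 88.9 and 24.7 CPM (15, 5 and 4 UMIs). In the other cells of the follicle *ITGA9* was at 1.92, 2.08 and 1.60 CPM and *ITGA1* at 1.19, 0.816 and 0.484 CPM.

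Of 23 members counted, 8 were higher by 2-fold in endothelial-like cells in every library, against 11.5% of all genes. The other 3 were *COL15A1* (8, 2 and 6 UMIs), *COL8A1* (4, 2 and 5 UMIs) and *LAMB1* (17, 2 and 5 UMIs). With 2 catagen UMIs, *LAMB1* had a catagen ratio of 2.59 with an interval of 0.313 to 9.39, and *COL8A1* one of 6.02 (0.726 to 21.9), so neither is set apart from 1 by counting in that library. Of the 8, *COL8A1*, *ITGA5*, *COL15A1*, *LAMA4*, *ITGA9* and *ITGA1* passed the level filter only through these cells. The set was largely shared, since *COL4A1*, *LAMB1*, *ITGA5*, *LAMA4*, *ITGA9* and *ITGA1* were also higher by 2-fold in the anagen mesenchymal-like cells. *COL4A1* was higher in bulge stem-like cells as well. *COL17A1* was the 1 lower member, at 78.1, 17.8 and 37.1 CPM, against 2.68% of all genes. That was 8.59%, 2.29% and 5.10% of its basal keratinocyte-like level, where *KRT14* had 8.26%, 2.36% and 6.82%, and the part of free RNA in it was not tested. *ITGA6*, which endothelium also makes, was at 280.4, 124 and 210.2 CPM (61, 7 and 34 UMIs), from 2.27-fold the other cells in anagen to 0.675-fold in catagen, with intervals of 1.74 to 2.92 and 0.271 to 1.39. With at least 1000 genes per cell the count of higher members was 18 in place of 8. A library counts only with at least 20 cells of the class, and 18 catagen cells of it had at least 1500 UMIs. These counts may thus rest on different libraries, and no share of all genes is given for the 18.

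Mesenchymal-like cells held most UMIs of *COL1A2* and *COL3A1* but not of *COL5A1*, of which they had 14.1%, 0.135% and 1.25%. In the 21 anagen cells *COL1A2* was at 18141 CPM (17406 to 18899), *COL3A1* at 3737 (3408 to 4089.7), *COL5A1* at 1304 (1112 to 1518) and *COL6A1*, a microfibril chain, at 474 (362 to 610.2). In the 4 catagen cells *COL1A2* had 11 UMIs and in the 6 telogen cells 231, or 783 and 10191 CPM. *COL3A1* had 4 and 49 UMIs in them. In anagen, *COL1A2* was at 2.60 CPM and *COL3A1* at 0.629 CPM in all other cells.

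Only anagen had the 20 cells needed for a count by class. There 24 of 34 members were higher by 2-fold, against 21.1% of all genes, and 15 of the 24 passed the level filter only through these cells. *LAMA3*, *ITGA6* and *COL17A1* were the 3 lower, against 14% of all genes. *NID1*, which links laminin to type IV collagen, had 9 of its 16 anagen UMIs here. *ITGBL1*, an integrin-like secreted protein, had 31 of 32. At resolution 0.4 or with 15 principal components the class was not found. The plot of named members by class shows *COL1A2* and *COL3A1* at the far right of the mesenchymal-like panel and at or near the left edge of the keratinocyte panels.

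**Figure D2:**
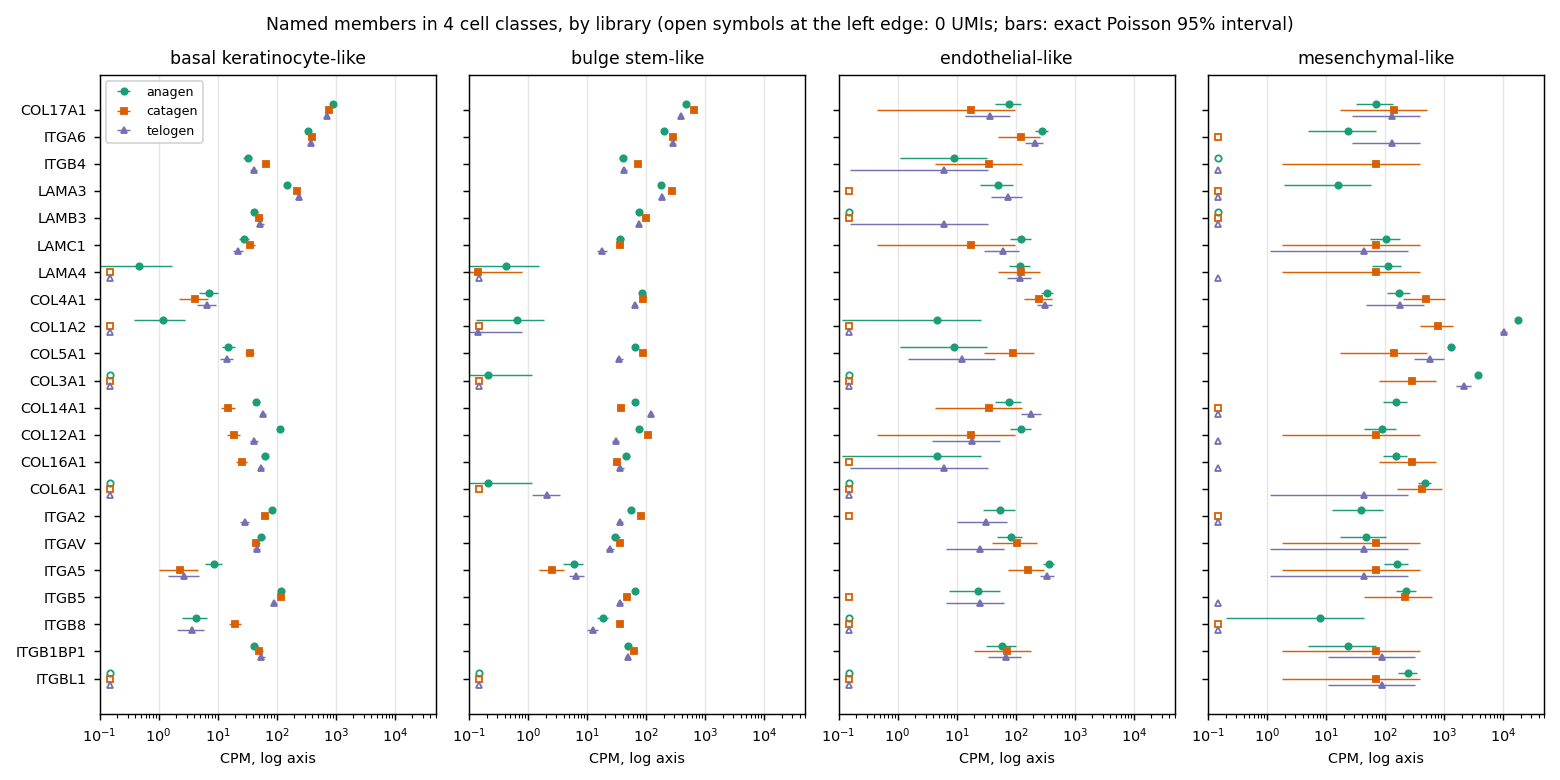
Level of the named members in basal keratinocyte-like, bulge stem-like, endothelial-like and mesenchymal-like cells, on a log axis of CPM. Circles, squares and triangles are the anagen, catagen and telogen libraries, bars are exact Poisson 95% intervals, and open symbols at the left edge stand for 0 UMIs. *COL1A2* reaches 18141 CPM in the mesenchymal-like cells of anagen, and *COL17A1* 910.0 CPM in basal keratinocyte-like cells.

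Levels over the clusters with at least 20 cells in each library placed the peak of several chains outside the clusters that were given a name. Cluster 22, which held the endothelial-like and mesenchymal-like cells, was divided into sub-clusters and is not ranked here. The peaks below are thus among the other clusters, and *COL4A1* was higher in endothelial-like cells than in any of them. In anagen, *COL5A1* was higher in mesenchymal-like cells than in any of them, by the level given above. *ITGB5*, *COL12A1*, *COL14A1*, *COL16A1* and *LAMC1* were also past 2-fold in those cells, which were not ranked against the clusters. By the mean of the 3 libraries, *COL17A1* and *ITGB5* were highest in the basal keratinocyte-like cluster, and *LAMA3*, *ITGB4*, *COL14A1* and *COL5A1* in the larger bulge stem-like cluster. In catagen alone *COL17A1* was higher in the larger bulge stem-like cluster, at 808 against 778 CPM. A further 8 chains (*ITGA6*, *ITGA2*, *ITGAV*, *LAMB3*, *LAMC1*, *COL4A1*, *COL12A1* and *COL16A1*) were highest in an unnamed cluster of 856 cells, number 14, whose leading genes included *CLDN10*, *TAGLN*, *BGN* and *LGR5*. It had 5 bulge stem markers raised (*LHX2*, *SOX9*, *LGR5*, *SFRP1* and *IGFBP5*) and 3 pericyte markers (*ACTA2*, *TAGLN* and *CSPG4*), and stayed unnamed because its leading genes held 1 of each list. *COL4A1* was there at 274, 200.3 and 206 CPM in anagen, catagen and telogen, *COL12A1* at 123, 264 and 88.0 and *COL16A1*, a fibril-associated collagen, at 112, 136 and 86.7. *ITGA6* was at 377, 469.5 and 357 CPM in it, close to the basal class, where the telogen value was the higher. *COL17A1* was at 408, 504 and 377 CPM in it, below its level in the basal class in every library. By the mean, *ITGB8* was highest in an unnamed cluster of 494 cells led by *KRT75* among others, at 14.6, 43.3 and 17.4 CPM. The lead was small, with means of 25.1 CPM there and 24.1 CPM in the smaller bulge stem-like cluster. In anagen cluster 14 was higher, at 25.8 CPM.

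**Figure D3:**
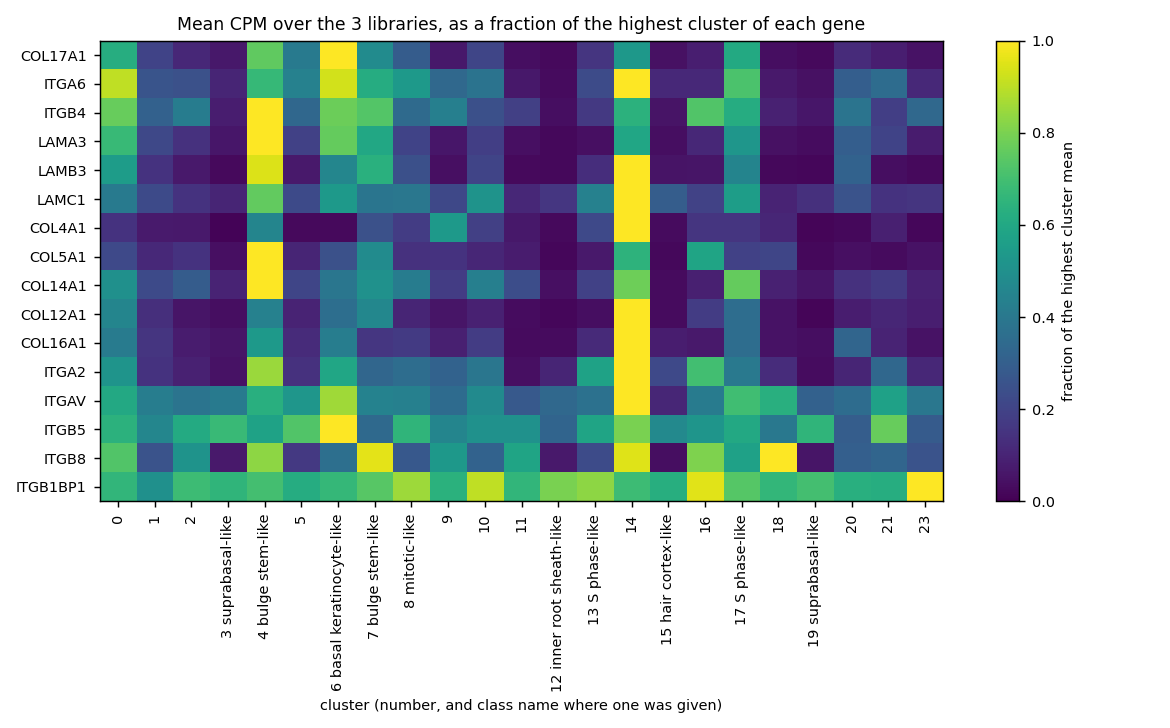
Mean CPM over the 3 libraries of 16 named members in each cluster with at least 20 cells per library, as a fraction of the gene's highest cluster (colour scale from 0 to 1). Rows are genes ordered by role and columns are clusters by number, with a class name where one was given. Cluster 14 holds the brightest square of 8 genes, cluster 4 (bulge stem-like) of 4 and cluster 6 (basal keratinocyte-like) of 2.

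Within basal keratinocyte-like cells *COL17A1* and *ITGA6* did not pass 2-fold between any stages. *COL17A1* had log2 ratios of -0.23 for catagen over anagen (-0.30 to -0.16) and -0.32 for telogen over anagen (-0.39 to -0.26), and *ITGA6* of 0.20 and 0.18. The catagen over anagen log2 ratio of 0.52 that *COL17A1* had in whole libraries thus lay below 0 inside this class. *ITGB4* was higher in catagen than anagen, at 1.03 (0.72 to 1.35), and *LAMA3* had 0.57 (0.42 to 0.72).

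In these cells 3 fibril-associated collagens were lowest in catagen. *COL12A1*, which links fibrils to the matrix around them, was at 112, 18.8 and 41.6 CPM in anagen, catagen and telogen, a catagen over anagen log2 ratio of -2.57 (-2.97 to -2.20). *COL14A1* was at 45.4, 15.1 and 59.1 CPM, with -1.59 (-2.06 to -1.14), and *COL16A1* at 62.4, 25.8 and 54.4 CPM, with -1.27 (-1.64 to -0.92). All 3 were higher again in telogen, by telogen over catagen log2 ratios of 1.14, 1.97 and 1.07. *ITGB8* and *COL5A1* had the reverse order, with *ITGB8* at 4.26, 19.7 and 3.65 CPM and *COL5A1* at 15.1, 34.8 and 14.2 CPM. *ITGA2* fell from anagen to telogen, at 84.7, 63.5 and 28.8 CPM.

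By count, 4 of 25 members were higher in catagen than anagen in this class (*ITGB8*, *COL5A1*, *LAMA5* and *ITGB4*) against 5.41% of all genes. The 5 lower ones were *COL12A1*, *COL14A1*, *COL16A1*, *COL5A2* and *COL24A1*, against 14.6%. For telogen over anagen 0 of 23 were higher (3.99% of all genes) and 4 lower, among them *COL24A1*, *COL12A1* and *ITGA2* (14%). For telogen over catagen 3 of 24 were higher (9.27% of all genes) and 3 lower, namely *ITGB8*, *COL5A1* and *ITGA2* (10%). The member medians were 0.00, -0.20 and 0.02 on the log2 scale, and those of all genes -0.17, -0.19 and 0.00. The shares of members called downward lay close to those of all genes.

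In bulge stem-like cells more members were lower in telogen than were higher. *COL17A1* was highest in catagen, at 0.45 over anagen (0.37 to 0.52), and lower in telogen than catagen at -0.71 (-0.78 to -0.64). *COL4A2* was at 39.6, 58.1 and 23.4 CPM, with a telogen over catagen log2 ratio of -1.31 (-1.58 to -1.05), and *COL5A1* had -1.33 (-1.55 to -1.11). *COL12A1* was at 77.0, 106 and 30.8 CPM, with 0.46 for catagen over anagen and -1.78 for telogen over catagen (-2.01 to -1.56). Its telogen over catagen ratio thus had the opposite sign to that in basal keratinocyte-like cells, a difference that was not tested. *COL14A1* kept the order it had there, lowest in catagen and highest in telogen (65.5, 36.9 and 122 CPM).

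Here 3 of 25 members were higher in catagen than anagen (*COL5A3*, *LAMA5* and *ITGA3*), against 4.04% of all genes, and 0 lower, against 5.57%. For telogen over anagen 1 of 22 was higher, *ITGB6* (2.94% of all genes), and 4 were lower, *COL12A1*, *LAMC1*, *COL8A1* and *COL4A5* (8.33%). For telogen over catagen 2 of 26 were higher, *COL14A1* and *ITGB6* (6.52% of all genes). The 10 lower members included *COL12A1*, *ITGB8*, *COL5A1*, *COL4A2*, *COL4A5*, *LAMC1*, *LAMA5* and *ITGA2*, against 12.3%. The member medians were 0.45, -0.36 and -0.65, and those of all genes -0.02, -0.19 and -0.18. The median log2 ratios of all detected genes were -0.04, -0.14 and -0.14 in the basal class and 0.04, -0.23 and -0.28 in the stem class. Under median-of-ratios scaling the telogen over catagen count in bulge stem-like cells was 2 higher and 7 lower, and telogen over anagen 2 higher and 1 lower. In the smaller of the clusters taken alone, 2 members were past 2-fold for telogen over anagen in place of 5. The share of all genes is not given for these alternative counts. The larger cluster made up 515, 1607 and 729 of the class's cells, so its share was highest in catagen, and its part in these ratios was not tested.

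**Figure D4:**
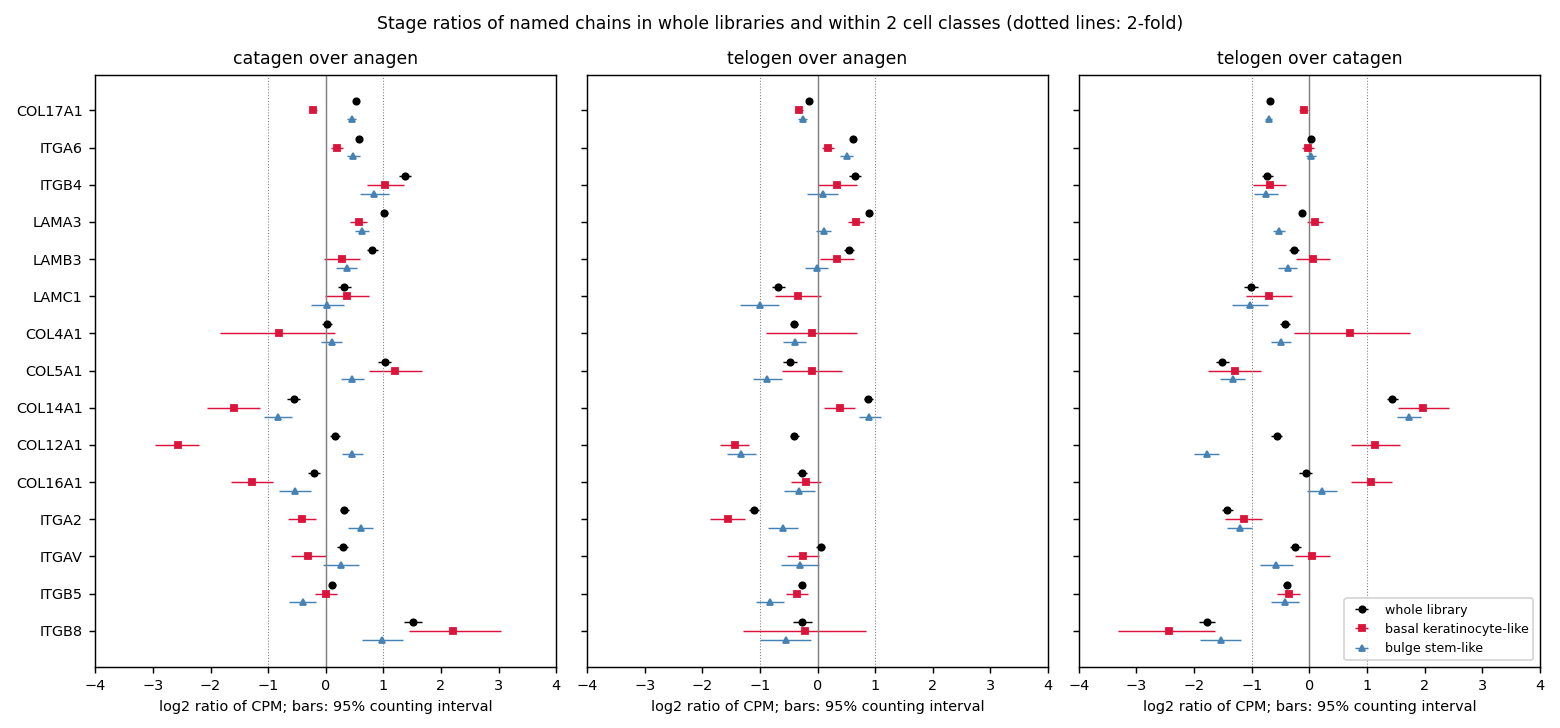
Log2 ratios of CPM between stages for 15 named chains, in whole libraries (circles), basal keratinocyte-like cells (squares) and bulge stem-like cells (triangles), with bars for the 95% counting interval. Panels are catagen over anagen, telogen over anagen and telogen over catagen, and dotted lines mark 2-fold. *COL12A1* lies at 1.14 in basal keratinocyte-like and -1.78 in bulge stem-like cells in the third panel.

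The share of cells with a *COL17A1* UMI was compared after every cell was thinned to 1500 UMIs. It was 64.1, 60.3 and 59.3% in basal keratinocyte-like cells of anagen (60.3% to 67.7%), catagen (56.8% to 63.7%) and telogen (55.6% to 63.0%), whose intervals overlapped. In bulge stem-like cells it was 46.8, 55.4 and 38.1%, and the catagen interval (53.2% to 57.7%) lay above those of anagen (43.7% to 49.9%) and telogen (35.3% to 41.0%). The share was 6.82, 7.19 and 3.29% in suprabasal-like cells and 4.17, 0 and 0% in endothelial-like cells. In the latter 0 of 18 catagen and 0 of 30 telogen cells allow up to 16.7% and 10.0% (3 cells of the total). Without thinning the shares were 93.0, 81.7 and 87.0%, 75.1, 67.5 and 67.7% and 20.8, 3.70 and 3.03% in the basal, stem and endothelial classes. Thinning left out 0, 57 and 19 basal keratinocyte-like and 0, 551 and 112 bulge stem-like cells, and the cells kept had median depths of 5703, 4055 and 6304 and 3868, 2725.5 and 4862 UMIs.

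For *COL4A1* the thinned share was 1.04, 0.246 and 1.16% in basal keratinocyte-like cells. In suprabasal-like cells it was 0.644, 0 and 0.394%, where 0 of 1029 catagen cells allow up to 0.292%. These intervals overlapped in every library, while the CPM was higher in the basal class (7.10, 4.06 and 6.62 against 4.48, 1.64 and 1.96). The part of background in the basal share was not tested. The thinned *COL4A1* share was 9.61, 12.4 and 8.45% in bulge stem-like cells and 33.3, 33.3 and 33.3% in endothelial-like cells. The split of *COL4A1* between the keratinocyte classes was thus also present in numbers of cells.

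Genes that work with the members were read from a list of 50, of which 46 had a row and *HSPG2*, *VTN*, *FERMT3* and *LIMS1* were not matched. *DST*, the linker of hemidesmosomes to keratins, was at 330.5, 675 and 354 CPM in anagen, catagen and telogen and was the 1 of 20 partners past 2-fold upward in catagen over anagen, with a log2 ratio of 1.03, while *SDC4*, a heparan sulfate receptor, was the 1 downward at -1.45 (4.41% and 3.47% of all genes). *PLEC*, the other hemidesmosome linker, was at 169, 252 and 109 CPM and was lower in telogen than catagen at -1.21, with *BCAM*, *VCL* and *FRAS1* (4 of 21, against 12% of all genes). *TNC*, a matrix glycoprotein, was at 11.6, 7.37 and 27.2 CPM and was the 1 of 21 higher in telogen than catagen (4.1% of all genes), and with *P4HA2*, a collagen proline hydroxylase, made 2 of 19 higher in telogen than anagen (3%). *TLN2* and *SDC4* were the 2 lower in telogen than anagen (7.83%).

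By class, partners higher by 2-fold in every library were 4 of 20 in basal keratinocyte-like cells (*POSTN*, *FERMT1*, *TLN2* and *PLOD3*, against 2.16% of all genes), 5 of 20 in bulge stem-like cells (*DST*, *SPARC*, *FERMT2*, *P3H1* and *PLOD3*, against 3.41%) and 4 of 20 in endothelial-like cells (*FN1*, *TLN1*, *FERMT2* and *PLOD3*, against 11.5%). *POSTN*, a matricellular protein, was at 3419, 2302 and 3203 CPM in basal keratinocyte-like cells and was the 1 partner lower in endothelial-like cells. *DST* was at 1139, 1745 and 1026 CPM in bulge stem-like cells. *FN1*, the ligand of *ITGA5*, was at 129, 196 and 631 CPM in endothelial-like cells and at 1075, 1707 and 882 CPM in mesenchymal-like cells. In the anagen mesenchymal-like cells 13 of 27 partners were higher, against 21.1% of all genes, among them *SPARC*, *LOX*, *PCOLCE*, *BMP1* and *ADAMTS2* of collagen assembly, and *BCAM* was the 1 lower. In the whole anagen library *LOX*, *PCOLCE*, *BMP1* and *ADAMTS2* were at 1.09, 3.25, 5.18 and 2.61 CPM. They passed the level filter only through these cells. *FN1* (2.95, 0.912 and 1.90 CPM) and *PLOD3* (8.65, 9.37 and 9.43 CPM) were under 10 CPM in every whole library. Both passed only through the classes they were counted in, so these partner counts by themselves say little. *TNC* was higher in telogen than catagen in both the basal keratinocyte-like (13.7, 11.0 and 56.2 CPM) and the bulge stem-like class (41.9, 12.5 and 40.7 CPM).

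Among the less abundant chains, the laminins of general basement membranes were led by *LAMB1* at 11.7, 13.8 and 8.54 CPM in anagen, catagen and telogen, with *LAMA5*, an alpha chain of mature epithelial membranes, at 3.76, 8.42 and 3.73 CPM. *LAMA5* had a catagen over anagen log2 ratio of 1.17 (0.95 to 1.38), and lay under the 10 CPM needed for a count. *LAMA1* and *LAMA2*, chains of embryonic and muscle membranes, stayed under 1 CPM in whole libraries. Basal keratinocyte-like cells held 22, 20 and 13 *LAMA1* UMIs in anagen, catagen and telogen, and bulge stem-like cells 0, 0 and 3. The lower limits of its basal over stem log2 ratio were 2.61, 3.33 and 0.96. *LAMA2* ran the other way, with 0 UMIs in the basal class and 3, 12 and 1 in the stem class. Within the keratinocyte classes *LAMA5* did reach 10 CPM in catagen, at 2.37, 11.3 and 6.39 CPM in the basal and 4.47, 10.7 and 4.07 CPM in the stem class.

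Integrin alpha chains other than *ITGA6* gave 82.4, 99.8 and 62.8 CPM over 15 genes and beta chains other than *ITGB4* 78.1, 97.0 and 66.9 CPM over 5. *ITGA2* and *ITGAV* made up most of the former and *ITGB5* of the latter. *ITGA3* was at 3.56, 7.33 and 4.23 CPM, *ITGA2B*, the platelet chain, at 6.01, 6.83 and 4.85 CPM and *ITGB6* at 3.56, 4.04 and 5.30 CPM. *ITGB6* was highest in telogen and *ITGA3* in catagen. In bulge stem-like cells *ITGB6* was at 6.81, 4.69 and 13.7 CPM, and its telogen over anagen log2 ratio was 1.01 (0.42 to 1.64). In basal keratinocyte-like cells the same ratio was 0.27 (-0.30 to 0.84), and that difference between the classes was not tested.

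Of the remaining members, *ITGB1BP1*, a binding protein of an integrin tail and no chain itself, was at 46.4, 58.1 and 51.0 CPM and at 42.1, 49.9 and 55.3 CPM in basal keratinocyte-like and 48.5, 62.4 and 48.4 CPM in bulge stem-like cells, and was not past 2-fold in any of the counts above. *COL11A1*, a minor fibrillar chain, was at 5.65, 7.74 and 0.435 CPM, so telogen was far the lowest library, but it stayed under 10 CPM. *COL23A1* was at 1.11, 4.29 and 1.25 CPM and *COL24A1* at 3.03, 1.53 and 4.18 CPM. The leukocyte chains *ITGAL*, *ITGAM*, *ITGB2* and *ITGB7* had at most 66 UMIs in a library, and *ITGAE* had 270, 310 and 604.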

How the data were processed

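Cells of 3 single-cell libraries (anagen, catagen and telogen, 1 each) were analysed from the counts that the authors deposited, which are whole UMI counts per gene and cell, not normalized. The study's methods, which describe anagen and catagen, state that reads were aligned with STAR in Cell Ranger. Its version is 4.0.0, 3.1.0 and 6.0.2 in the file headers of anagen, catagen and telogen, and 2.1.1 in the submitters' processing notes. The genome build is not given in the sources used here.

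Cells with at least 200 genes were kept. As in the study, libraries were integrated with Seurat 5.3.0 in R 4.3.3, here with all 3 stages, 2000 variable genes per library, 30 principal components and resolution 0.8, and with the members left out of the variable genes. A cluster of the 26 was named from the fixed markers (71 of 80 had a row) when at least 3 of its best list were at 1.5-fold or more and its 10 leading genes held more markers of that list than of any other (a tie was allowed for endothelial and mesenchymal lists), and cluster 22, which mixed 3 classes, was divided into 5 sub-clusters. Both the naming rule and this division were chosen once the clusters were known. Scrublet in scanpy 1.11.5 called 0 cells, which does not show that doublets were absent, and any doublets were left in. With the highest 5% of Scrublet scores removed, 65 of 66 ratios of named members kept their direction.

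UMIs were summed per library and class in Python 3.11.15 (numpy 2.4.6, pandas 2.3.3, scipy 1.17.1, matplotlib 3.10.9). Levels have exact Poisson 95% intervals and ratios exact conditional binomial ones. Shares have Clopper-Pearson intervals, and the limit given for a share of 0 is 3 counts of the total. Intervals and limits cover counting error only. The 2-fold rule, with the filters applied, and the ratio intervals were tested on simulated data. Sides at 0 were set to 3 UMIs, which those data did not test. Class ratios needed 2-fold in every library with at least 20 cells of the class.

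Named genes were members with at least 20 CPM in a library, the 5 members with the highest mean CPM in each class, and partner genes past 2-fold, and other members named in the text were chosen after their values were seen. The members and lists were chosen with earlier results of these data known. Sequences were not used here, and some genes are not reported here.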

Additional observations from a re-analysis of the deposited data

Results flagged for a closer look

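*COL12A1* moved in opposite directions between telogen and catagen in the keratinocyte classes. Its telogen over catagen log2 ratio was -1.78 in bulge stem-like cells (-2.01 to -1.56) and 1.14 in basal keratinocyte-like cells (0.72 to 1.57), both past 2-fold. The levels were 77.0, 106 and 30.8 CPM in anagen, catagen and telogen in the former and 112, 18.8 and 41.6 CPM in the latter. The difference was not tested, since each stage has 1 library.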

How the results depend on the processing

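With 1 library per stage no replicate could be left out. No paired analysis was possible because each stage has 1 library and no replicates to pair. The level filter decided most counts. With a minimum of 50 CPM in place of 10, whole-library counts past 2-fold were 1, 0 and 1 for catagen over anagen, telogen over anagen and telogen over catagen (5, 2 and 6 before), basal keratinocyte-like counts between stages 3, 2 and 3 (9, 4 and 6) and bulge stem-like counts 0, 1 and 5 (3, 5 and 12). Members higher by class were then 3 basal (7), 4 stem (11) and 3 endothelial (8). With at least 1000 genes per cell the counts were 3 for catagen over anagen, 5 for bulge stem-like catagen over anagen and 18 for endothelial-like cells. The endothelial-like count may rest on fewer libraries than the 8 before. Requiring the smallest anagen total of 2404 UMIs gave 3 for catagen over anagen. Median-of-ratios scaling gave 3 for catagen over anagen and 2 for telogen over catagen in whole libraries, and 3 for telogen over anagen in bulge stem-like cells. When the CPM of single cells were averaged, 4 members were higher in the basal class, and with 15 principal components 2 were. Shares of all genes under these and the later settings are not given, so these counts are not set against them.

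Cell numbers followed the clustering. Basal keratinocyte-like cells (2256) were 2405 at resolution 0.4, 5824 with 15 components, 2411 with the members kept among the variable genes and 2585 with each library clustered alone. Bulge stem-like cells (4835) were 4250 at resolution 0.4, 4705 with the members kept and 4637 alone. Endothelial-like cells (108) were 49 with the members kept and 87 alone. Mesenchymal-like cells (31) were 0 at resolution 0.4 and 0 with 15 components, so the mesenchymal-like count has no value there, nor with at least 1000 genes per cell. The endothelial-like count has none with the members kept, and stage ratios in the basal class none with each library alone. The causes were not tested.

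The share of cells with a *COL17A1* UMI in anagen, catagen and telogen was 83.3%, 78.5% and 76.9% at 3000 UMIs and 93.0, 81.7 and 87.0% without thinning in the basal class. In the stem class it was 68.4%, 72.6% and 54.9%, and 75.1, 67.5 and 67.7%. Without thinning it was 20.8% in anagen endothelial-like cells.

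Of alternatives chosen after seeing the data, leaving out cluster 22 gave 1 member past 2-fold for telogen over anagen and turned the catagen over anagen log2 ratio of *COL6A1* from -2.06 to 0.36. The smaller bulge stem-like cluster alone gave 2 for telogen over anagen. The larger cluster alone, and the mixed sub-cluster counted as endothelial-like, moved no count by over 1.5 times. In all, 121 counts, cell numbers and shares and 332 ratios of named members stayed close to their values, and 47 and 122 moved. Ratios under 2-fold turned sign under some settings, and under median-of-ratios scaling 53 of 66 kept theirs. In catagen 56249 UMIs stood behind the endothelial-like and 14056 behind the mesenchymal-like class, which limits both.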
